A study of Mus musculus with 12 samples.

Results

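Collagen genes outside the fibrillar and basement membrane families were followed in RNA-seq of sorted aortic smooth muscle cells (SMCs). Members were the genes whose Ensembl identifiers map to *Col6a1*, *Col6a2*, *Col6a3*, *Col8a1*, *Col8a2*, *Col12a1*, *Col14a1*, and *Col16a1*. The choice was made by name and not by a measured value, although earlier results of these data were known. All 8 were present among the 52636 genes of the count matrix, and all 8 passed the filter on low counts, which left 22320 genes in all. By the numbers in their titles, the 12 libraries were taken to come from 3 GFPiSMC and 3 Tgfbr1/2iSMCKO mice. Each gave a library of the ascending aorta with the arch (ascending/arch) and a library of the descending thoracic aorta (descending). GFPiSMC mice carry Myh11-CreERT2, a tamoxifen-inducible Cre driven by an SMC myosin promoter, and the mT/mG reporter, which turns on GFP after Cre acts. Tgfbr1/2iSMCKO mice carry in addition floxed alleles of *Tgfbr1* and *Tgfbr2*, the receptors of TGF-β. Both genotypes therefore carry Cre and reporter, both received tamoxifen for 5 days, and the floxed alleles cannot be told apart from their deletion. The mice were C57BL/6J males, since this Cre transgene lies on the Y chromosome, and were 12 weeks old. The labels name 4 and 11 weeks as starting ages of tamoxifen, and the methods of the study give 11 weeks. The cells are viable, single, GFP-positive SMCs of 1 aortic segment, so that SMCs that escaped Cre are not represented.

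Collagen VI assembles from α1, α2, and α3 chains into beaded microfilaments that lie around cells and near basement membranes, where they meet receptors, proteoglycans, and larger fibers. Collagen VIII is a short-chain collagen that forms networks in vessel walls and is known for its induction in SMCs after arterial injury. Collagens XII, XIV, and XVI are fibril-associated collagens with interrupted triple helices (FACITs), which sit on the surface of collagen fibrils and link them to other matrix. TGF-β is a well-known inducer of matrix genes in mesenchymal cells, acting through receptor-activated SMAD proteins that bind DNA.

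The genes lie at separate places in the mouse genome (GRCm38), apart from *Col6a1* and *Col6a2*. *Col6a1* (ENSMUSG00000001119.7) spans chr10:76708792-76726168 and *Col6a2* (ENSMUSG00000020241.13) spans chr10:76595762-76623630, both on the minus strand and 85161 bases apart. *Col6a3* (ENSMUSG00000048126.16) lies at chr1:90765923-90843971 on the minus strand. *Col8a1* (ENSMUSG00000068196.4) lies at chr16:57624258-57754737 on the minus strand and *Col8a2* (ENSMUSG00000056174.8) at chr4:126286793-126314330 on the plus strand. Among the FACITs, *Col12a1* (ENSMUSG00000032332.17) is at chr9:79598991-79718831 on the minus strand, *Col14a1* (ENSMUSG00000022371.15) at chr15:55307750-55520803 on the plus strand, and *Col16a1* (ENSMUSG00000040690.15) at chr4:130047840-130099283 on the plus strand. Counts cover whole gene models, in which exons and untranslated regions are not separated. Small annotated genes overlap 3 members, namely Gm36970 within *Col6a3* with 3 to 53 counts per library, antisense 4930562D21Rik within *Col12a1* with 4 to 15 counts, and antisense 1700040F17Rik within *Col14a1* with 0 to 9 counts. Since the libraries do not mark strand, reads of the antisense pairs cannot be told apart.

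The bases just upstream of the annotated starts are shown for the 4 members whose libraries did not overlap between genotypes over both segments. They come from RefSeq promoter windows on GRCm38, in which 6 of 8 members had an entry (not *Col12a1* or *Col14a1*). The sequences read 5′ to 3′ on the strand of the gene, in lower case, with capitals marking CAGAC, a SMAD-binding element, or GTCTG, the same element on the other strand.

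*Col6a1*, chr10:76726169-76726294, minus strand: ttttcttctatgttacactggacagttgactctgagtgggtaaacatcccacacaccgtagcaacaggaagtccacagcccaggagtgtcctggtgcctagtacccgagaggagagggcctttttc

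*Col6a2*, chr10:76623631-76623880, minus strand: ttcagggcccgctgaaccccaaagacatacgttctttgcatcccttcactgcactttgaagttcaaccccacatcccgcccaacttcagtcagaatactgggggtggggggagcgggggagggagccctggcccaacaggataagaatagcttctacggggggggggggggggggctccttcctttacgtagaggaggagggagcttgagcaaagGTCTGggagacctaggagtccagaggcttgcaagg

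*Col6a3*, chr1:90843972-90844221, minus strand: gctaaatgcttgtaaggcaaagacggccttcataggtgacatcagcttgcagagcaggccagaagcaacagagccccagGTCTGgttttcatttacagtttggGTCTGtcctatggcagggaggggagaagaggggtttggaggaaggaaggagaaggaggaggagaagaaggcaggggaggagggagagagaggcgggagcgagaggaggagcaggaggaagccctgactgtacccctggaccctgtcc

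*Col8a1*, chr16:57754738-57754987, minus strand: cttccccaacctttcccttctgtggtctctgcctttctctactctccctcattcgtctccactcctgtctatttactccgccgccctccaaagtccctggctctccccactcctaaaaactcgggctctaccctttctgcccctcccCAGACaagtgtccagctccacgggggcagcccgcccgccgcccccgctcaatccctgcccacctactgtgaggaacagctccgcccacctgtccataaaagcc

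These stretches held 0 copies of CAGAC for *Col6a1*, 1 for *Col6a2*, 2 for *Col6a3*, and 1 for *Col8a1*, counted on both strands. The stretches of *Col8a2* and *Col16a1*, which did not pass the test between genotypes, held 0 copies. CAGAC was present in 49.6% of all 32851 RefSeq promoter windows of 300 bases, so a copy is about as common as its absence. The stretches are shorter, with 126 bases for *Col6a1* and 249 or 250 for the others, and no share was computed for such lengths. The full windows from which they were cut held the same counts of CAGAC. Other motifs searched on both strands were GGAATG, a TEAD element found in 14.7% of all windows, and the CArG box of serum response factor, found in 1.63%. Neither was present in the stretches shown. *Col6a2* had another RefSeq window, at chr10:76623355-76623654, whose start lies inside the annotated gene and which is not shown. It held 1 copy of GGAATG and 0 of CAGAC, so the matches of *Col6a2* depend on the start used. These matches describe letters in a window and are not evidence of binding.

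Library totals lay between 20467027 and 31392396 counts, from 9208 to 20000 sorted cells each. Each library was compared with the mean of the other libraries of its group over 11152 genes. No library stood clearly apart, with root mean square deviations from that mean of 0.484 to 0.761 (log2 scale). The deletion could not be checked by gene totals, because a transcript lacking the floxed exon would still be counted, and single exons were not examined. *Tgfbr1* differed by 0.10 on the log2 scale (SE 0.12, edgeR adjusted p = 0.790) and *Tgfbr2* by −0.26 (SE 0.11, adjusted p = 0.233). SMC markers (8 genes, *Myh11* and *Acta2* among them) summed to between 33927 and 47855 CPM, the count per 1000000 counts of a library. The sums of 10 fibroblast markers lay between 25.0 and 143 CPM, of 8 endothelial markers between 56.7 and 107 CPM, and of 7 macrophage markers between 10.5 and 53.9 CPM. CPM here were scaled between libraries by the trimmed mean of M values (TMM). Fewer cells of a type and less RNA per cell cannot be told apart in such pooled samples.

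Levels between genes were compared per kilobase of the principal transcript. In GFPiSMC ascending/arch libraries the order was *Col6a1* at 80.7 ± 10.8 CPM per kilobase, *Col6a2* at 58.6 ± 11.8, *Col6a3* at 26.1 ± 1.72, *Col14a1* at 12.4 ± 2.09, *Col8a1* at 0.70 ± 0.13, *Col12a1* at 0.64 ± 0.16, *Col16a1* at 0.36 ± 0.17, and *Col8a2* at 0.097 ± 0.14 (SD, n = 3). The collagen VI chains and *Col14a1* thus stood well above the rest. *Col6a1* was above *Col6a2* within each of the 12 libraries, by 1.16- to 1.77-fold per kilobase. Neighbours in this order from *Col8a1* to *Col8a2* overlapped in level. In GFPiSMC descending libraries the collagen VI order was the same, at 91.6 ± 15.3, 72.4 ± 19.2, and 38.7 ± 3.35 CPM per kilobase. *Col14a1* there was at 6.12 ± 0.37 CPM per kilobase, *Col8a1* at 1.26 ± 0.32, *Col16a1* at 0.78 ± 0.22, *Col12a1* at 0.41 ± 0.17, and *Col8a2* at 0.13 ± 0.040, of which only *Col8a1* and *Col16a1* overlapped as neighbours. In Tgfbr1/2iSMCKO ascending/arch libraries the chains *Col6a1*, *Col6a2*, and *Col6a3* were at 57.8 ± 2.56, 36.2 ± 6.72, and 18.7 ± 1.45 CPM per kilobase, and in the descending libraries at 59.9 ± 8.42, 38.5 ± 7.32, and 20.5 ± 1.02. *Col14a1* was at 6.33 ± 1.38 and 3.88 ± 1.77 CPM per kilobase in these groups. The 4 genes of low level lay between 0.12 and 0.63 CPM per kilobase as means of both Tgfbr1/2iSMCKO groups, in an order that their spread does not settle.

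**Figure D1:**
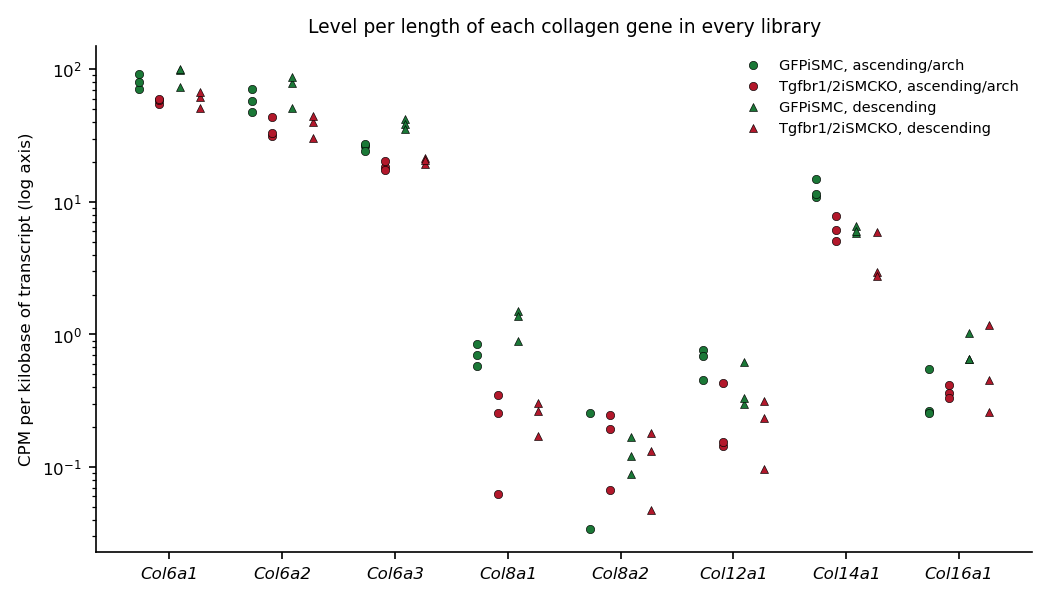
Level of each gene in every library, in CPM per kilobase of principal transcript on a log axis, with circles for ascending/arch, triangles for descending, green for GFPiSMC, and red for Tgfbr1/2iSMCKO. The 3 collagen VI chains lie highest and *Col14a1* next, and the *Col8a2* value of GFPiSMC ascending/arch replicate 2, at 0, is not drawn.

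Between genotypes over both segments, 5 of 8 genes were lower in Tgfbr1/2iSMCKO cells and 0 were higher at an adjusted p under 0.05 by edgeR's quasi-likelihood test with segment in the model. They were the 3 collagen VI chains, *Col8a1*, and *Col14a1*. Of all 22320 genes tested, 3.23% were lower and 1.8% higher by this rule. *Col8a1* alone was also past 2-fold, where 1.64% of all genes were lower past both criteria. All 6 Tgfbr1/2iSMCKO libraries lay below all 6 GFPiSMC libraries for 4 members (*Col6a1*, *Col6a2*, *Col6a3*, and *Col8a1*), against 2.89% of all genes. The median log2 fold change was −0.75 over the 8 members and 0.04 over all genes tested. Each mouse gave 2 libraries to this comparison, and with counts summed per animal (3 against 3) only *Col6a3* and *Col8a1* kept an adjusted p under 0.05, where 1.25% of all genes tested were lower.

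**Figure D2:**
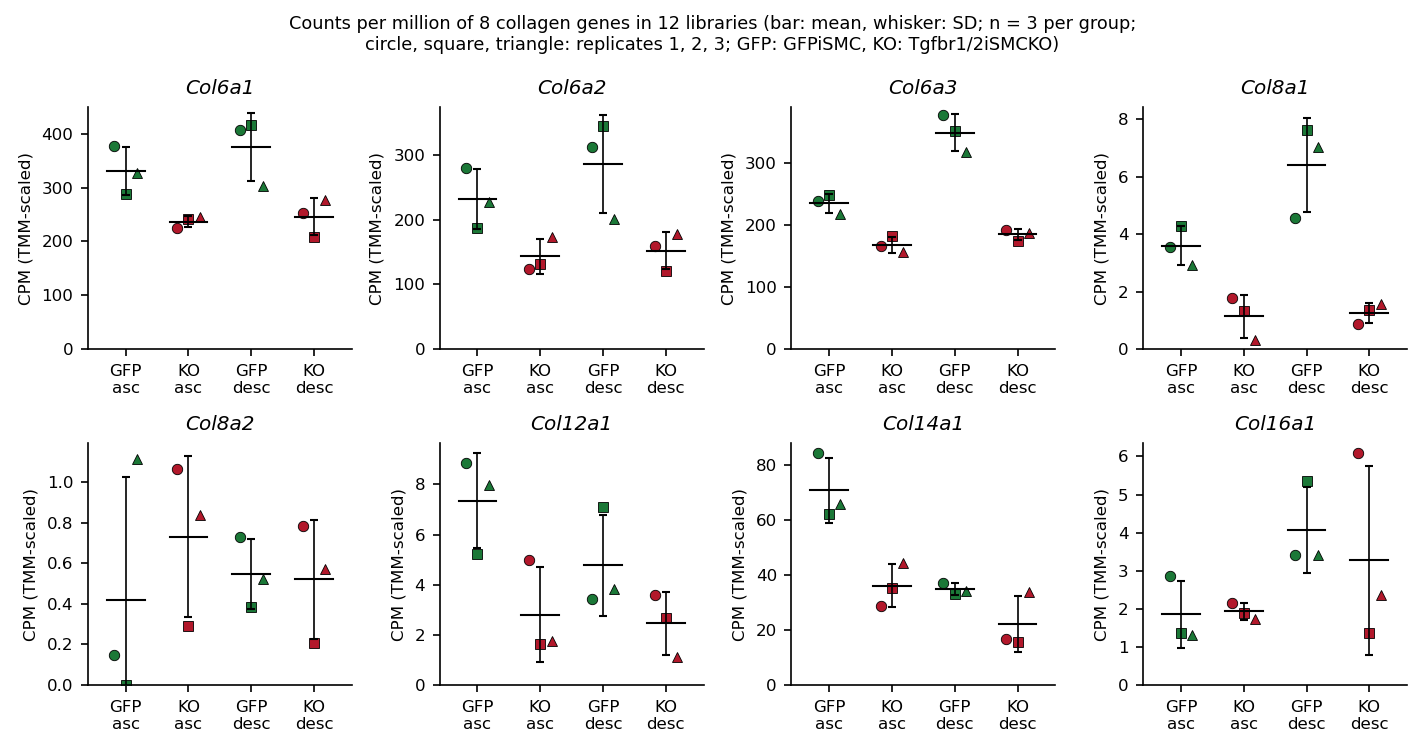
CPM (TMM-scaled) of the 8 genes in each of 12 libraries, 1 panel per gene, with bars for group means and whiskers for SD (n = 3 per group). Red Tgfbr1/2iSMCKO points lie below green GFPiSMC points in both segments for the *Col6* genes and *Col8a1*, whereas they mix for *Col8a2* and *Col16a1*.

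*Col6a1* encodes the α1 chain of collagen VI, which all forms of this collagen contain. In the ascending/arch it was at 377, 289, and 326 CPM in GFPiSMC replicates 1 to 3 and at 225, 241, and 244 CPM in Tgfbr1/2iSMCKO replicates 1 to 3. In the descending aorta the values were 407, 416, and 303 CPM against 253, 208, and 276 CPM. The groups did not overlap in either segment. The log2 fold change over both segments was −0.55 (SE 0.11, adjusted p = 0.0111 by edgeR), which leaves 68.5% of the GFPiSMC level.

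*Col6a2* encodes the α2 chain, of which the assembled protein needs a copy beside α1. GFPiSMC ascending/arch libraries held 280, 187, and 228 CPM and Tgfbr1/2iSMCKO libraries 124, 131, and 173 CPM. Descending libraries held 312, 345, and 200 CPM against 159, 120, and 177 CPM. The groups were again separate, although GFPiSMC descending replicate 3 came close to the highest Tgfbr1/2iSMCKO libraries. This came to 57.3% of the GFPiSMC level, a log2 fold change of −0.80 with an SE of 0.16 and an adjusted p of 0.0101 by edgeR.

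*Col6a3* encodes the longest of these chains, whose carboxy-terminal domain is cleaved off to give the fragment endotrophin. It was at 238, 248, and 218 CPM in GFPiSMC and at 166, 182, and 156 CPM in Tgfbr1/2iSMCKO ascending/arch libraries. Descending libraries gave 377, 351, and 317 CPM against 192, 174, and 187 CPM. Replicates of a group lay close together, and a wide gap separated the genotypes in the descending aorta. Tgfbr1/2iSMCKO cells held 61.6% of the GFPiSMC level (log2 scale −0.70, SE 0.11, adjusted p = 0.00122 by edgeR), and this remained past the threshold in each of 15 alternative analyses.

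For *Col6a1* and *Col6a2* the call depended on single animals. The adjusted p by edgeR was 0.104 and 0.0971 for these genes without GFPiSMC replicate 1, and 0.0835 and 0.0807 without Tgfbr1/2iSMCKO replicate 1. For *Col6a2* it was 0.0502 without Tgfbr1/2iSMCKO replicate 2. With counts summed per animal it was 0.119 for *Col6a1* and 0.0886 for *Col6a2*. Direction was kept throughout, with log2 fold changes of −0.62 to −0.42 for *Col6a1* and −0.96 to −0.68 for *Col6a2* over all alternatives.

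The makeup of the collagen VI transcripts per kilobase shifted little. *Col6a1* made up 48.8% ± 0.44 of the summed level of its 3 chains in GFPiSMC ascending/arch libraries and 51.4% ± 1.75 in Tgfbr1/2iSMCKO ones (SD, n = 3). In the descending aorta its share was 45.3% ± 0.87 against 50.4% ± 0.31. *Col6a2* held 35.2% ± 2.48 and 32.0% ± 3.76 in the ascending/arch, and 35.3% ± 3.35 and 32.2% ± 1.74 in the descending aorta, for GFPiSMC and Tgfbr1/2iSMCKO cells. *Col6a3* held 16.0% ± 2.64 and 16.6% ± 2.01 in the ascending/arch, and 19.4% ± 2.48 and 17.4% ± 1.80 in the descending aorta. Only the *Col6a1* share had separate groups, at 48.49% to 49.29% against 49.34% to 52.4% in the ascending/arch and at 44.5% to 46.2% against 50.04% to 50.6% in the descending aorta. An exact permutation test of 3 animals against 3 cannot go below p = 0.1, and the shares were not tested.

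*Col8a1* encodes the α1 chain of collagen VIII and gave the largest fold among the members past the threshold. GFPiSMC ascending/arch libraries held 3.56, 4.29, and 2.93 CPM (97, 125, and 71 counts). Tgfbr1/2iSMCKO libraries held 1.78, 1.31, and 0.32 CPM (52, 27, and 10 counts). In the descending aorta the values were 4.56, 7.64, and 7.03 CPM against 0.87, 1.36, and 1.55 CPM. Every Tgfbr1/2iSMCKO library was below every GFPiSMC library, at a low level in all of them. Over both segments the level was 4.01-fold lower (log2 scale −2.003, SE 0.37, adjusted p = 0.00507 by edgeR), and this too remained past the threshold in 15 of 15 alternative analyses.

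*Col8a2* encodes the partner chain α2(VIII), which is best known from the cornea. It was near the detection limit, with 4, 0, and 27 counts in GFPiSMC and 31, 6, and 26 counts in Tgfbr1/2iSMCKO ascending/arch libraries. Descending libraries held 19, 11, and 13 counts against 19, 5, and 17 counts. Groups overlapped, and a count of 0 beside 27 in the same group shows how coarse these values are. The log2 fold change was 0.38 with a 95% interval of −1.17 to 1.93 (SE 0.72, adjusted p = 0.890 by edgeR), so that a change of 2-fold in either direction was not excluded.

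*Col12a1* encodes a FACIT found on collagen I fibrils of tissues under load. It was at 8.84, 5.22, and 7.97 CPM in GFPiSMC and at 4.98, 1.65, and 1.77 CPM in Tgfbr1/2iSMCKO ascending/arch libraries. Descending libraries gave 3.41, 7.08, and 3.82 CPM against 3.603, 2.68, and 1.11 CPM. The groups were separate in the ascending/arch and overlapped in the descending aorta. Over both segments the log2 fold change was −1.17 (SE 0.37), with an unadjusted p of 0.00700 and an adjusted p of 0.0977 by edgeR. By DESeq2 the adjusted p was 0.0191, and by edgeR without Tgfbr1/2iSMCKO replicate 1 it was 0.0324.

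*Col14a1* encodes undulin, a FACIT that binds decorin and regulates fibril growth, and is also widely used as a marker of fibroblasts. It was at 84.2, 62.2, and 65.5 CPM in GFPiSMC and at 28.6, 35.1, and 44.2 CPM in Tgfbr1/2iSMCKO ascending/arch libraries. Descending libraries gave 37.1, 33.2, and 34.0 CPM against 16.8, 15.7, and 33.7 CPM. The ascending/arch groups were separate, and in the descending aorta Tgfbr1/2iSMCKO replicate 3 fell among the GFPiSMC libraries. The log2 fold change was −0.82 (SE 0.20, adjusted p = 0.0316 by edgeR), or 56.8% of the GFPiSMC level. The adjusted p lay between 0.0878 and 0.192 when any animal other than Tgfbr1/2iSMCKO replicate 3 was left out, with lowest values for GFPiSMC replicate 2 and highest for Tgfbr1/2iSMCKO replicate 1. It was 0.185 with counts summed per animal, 0.0575 with scaling by library size only, and 0.0518 without a filter beyond 1 count, so that the call was lost in 8 of 15 alternative analyses.

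*Col16a1* encodes a FACIT linked to fibrillin-rich microfibrils and integrin binding. It was at 2.86, 1.37, and 1.32 CPM in GFPiSMC and at 2.16, 1.89, and 1.74 CPM in Tgfbr1/2iSMCKO ascending/arch libraries. Descending libraries held 3.41, 5.36, and 3.41 CPM against 6.09, 1.36, and 2.36 CPM. The genotypes overlapped in both segments, with the highest and the lowest descending value both in Tgfbr1/2iSMCKO cells. The log2 fold change was −0.13 with a 95% interval of −0.90 to 0.64 (SE 0.36, adjusted p = 0.927 by edgeR), and its sign changed when only the library size was used for scaling.

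**Figure D3:**
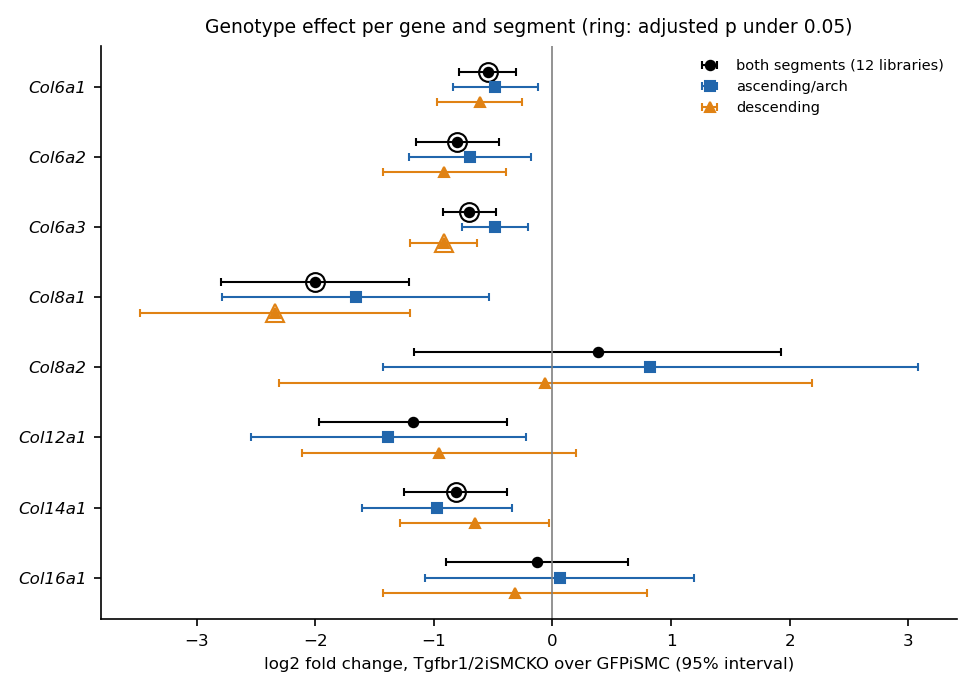
Log2 fold change of Tgfbr1/2iSMCKO over GFPiSMC for each gene, with 95% intervals, over both segments (black), in the ascending/arch (blue), and in the descending aorta (orange), with rings around values of an adjusted p under 0.05. The intervals of the *Col6* genes are narrow and lie below 0, that of *Col8a1* lies farthest from 0, and those of *Col8a2* and *Col16a1* span 0.

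Within the ascending/arch alone, 0 of 8 genes passed an adjusted p under 0.05 by edgeR, where 1.01% of all genes were lower. An unadjusted p under 0.05 was reached by 6 members and by 11.4% of all genes, and 6 members had lower, separate groups, as did 10.1% of all genes. DESeq2, by which 2.38% of all genes were lower, gave 3 lower members, *Col6a3* (adjusted p = 0.00899), *Col8a1* (0.0278), and *Col14a1* (0.0402). By edgeR the log2 fold changes were −0.48 for *Col6a1*, −0.69 for *Col6a2*, −0.48 for *Col6a3*, −1.66 for *Col8a1*, −1.39 for *Col12a1*, and −0.97 for *Col14a1*. Without Tgfbr1/2iSMCKO replicate 3, *Col14a1* passed with an adjusted p of 0.0285 by edgeR. *Col12a1* ranged from −2.09 without Tgfbr1/2iSMCKO replicate 1 to −1.12 without Tgfbr1/2iSMCKO replicate 2.

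Within the descending aorta, 2 genes were lower, *Col6a3* at −0.92 on the log2 scale (SE 0.13, adjusted p = 0.00291) and *Col8a1* at −2.34 (SE 0.52, adjusted p = 0.0440), by edgeR. Of all genes, 1.21% were lower there. Separate, lower groups were found for 4 members and 7.75% of all genes. *Col6a1* at −0.61 (adjusted p = 0.108) and *Col6a2* at −0.91 (adjusted p = 0.0921) did not pass by edgeR with the filter used throughout and passed by DESeq2 (0.0368 and 0.0242), by which 2.5% of all genes were lower and 4 members were. *Col6a2* also passed by edgeR among genes with a mean of 50 counts or more (adjusted p = 0.0365). For *Col8a1* the call was lost when each segment was fitted alone (adjusted p = 0.0532). It was also lost without any 1 of GFPiSMC replicates 1, 2, and 3 (adjusted p = 0.129, 0.208, and 0.145) or Tgfbr1/2iSMCKO replicates 1 and 2 (0.181 and 0.157). *Col14a1* passed without Tgfbr1/2iSMCKO replicate 3 (adjusted p = 0.0283), with a log2 fold change of −1.11 in place of −0.66.

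The genotype effect itself was not shown to differ between segments. By edgeR 0 of 8 members, and 0% of all genes, had an adjusted p under 0.05 for the difference, and DESeq2 also gave 0 members. An unadjusted p under 0.05 was reached by *Col6a3* alone, whose log2 fold change was lower by 0.43 in the descending aorta (95% interval −0.83 to −0.04, unadjusted p = 0.0337). For comparison, 2.95% of all genes had such a p. For *Col14a1* the difference was 0.32 with an interval of −0.56 to 1.201, and for *Col8a1* −0.68 with an interval of −2.24 to 0.88.

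Between segments of GFPiSMC mice, 0 of 8 genes passed by edgeR, where 0.376% of all genes did. *Col6a3* was at 0.57 on the log2 scale in descending over ascending/arch libraries (SE 0.13), with an unadjusted p of 0.000774, an adjusted p of 0.120 by edgeR, and an adjusted p of 0.00168 by DESeq2, by which 0.354% of all genes were higher. *Col14a1* was at −1.02 (SE 0.29, unadjusted p = 0.00400, adjusted p = 0.331). These were the 2 members with an unadjusted p under 0.05, against 5.98% of all genes. *Col6a3*, *Col8a1* at 0.83, and *Col16a1* at 1.13 had all 3 descending libraries above the ascending/arch ones (5.19% of all genes), and *Col14a1* had them below (7.8%). In Tgfbr1/2iSMCKO mice 0 genes passed, where 0.112% of all genes did, and *Col14a1* had the only unadjusted p under 0.05 (log2 fold change −0.70, unadjusted p = 0.0308, adjusted p = 1), against 3.68% of all genes. *Col6a3* was at 0.14 there, with a 95% interval of −0.14 to 0.42. DESeq2 gave 0 members in Tgfbr1/2iSMCKO mice.

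Fibroblast markers are given beside *Col14a1* because their summed level also differed between segments. The sum of the 10 markers was 103 to 127 CPM in GFPiSMC ascending/arch libraries and 69.4 to 85.0 CPM in descending ones, and 73.2 to 143 CPM and 25.0 to 58.6 CPM in Tgfbr1/2iSMCKO libraries. Of 9 markers tested, *Lum*, which encodes lumican, was the one lower in descending cells, with an adjusted p of 0.0146 in GFPiSMC and 0.0104 in Tgfbr1/2iSMCKO mice by edgeR. Without *Lum*, a sum chosen after the values were seen, the GFPiSMC segments overlapped at 64.0 to 79.2 and 66.1 to 81.2 CPM. *Dcn*, by which the paper identified fibroblasts, is in the list of binding partners below and not in these sums. Also picked out after its values were seen, it was at 34.5 to 68.3 CPM in GFPiSMC ascending/arch libraries and 11.1 to 23.4 CPM in descending ones. In Tgfbr1/2iSMCKO mice it was at 27.6 to 120 and 2.31 to 17.5 CPM. Of all genes, 7.8% had lower, separate descending libraries in GFPiSMC mice. Single markers went both ways in GFPiSMC mice, where 4 had all descending libraries below the ascending/arch ones (*Lum*, *Pdgfra*, *Pi16*, and *Cd34*) and *Serpinf1* had them above, at 33.1 ± 6.48 against 15.1 ± 1.05 CPM (SD, n = 3, adjusted p = 0.667 by edgeR). Between genotypes the marker sums overlapped in the ascending/arch and in the descending aorta lay lower in the Tgfbr1/2iSMCKO libraries. In the ascending/arch 0 of 9 markers tested passed between genotypes, and they went both ways. The log2 fold changes there were 0.37, 1.93, and 0.63 for *Pdgfra*, *Dpt*, and *Cd34* (adjusted p = 0.689, 0.422, and 0.556 by edgeR). For *Serpinf1* and *Smoc2* they were −1.25 and −1.30 (adjusted p = 0.229 and 0.450 by edgeR). *Serpinf1* (−1.58, adjusted p = 0.00646) and *Smoc2* (−1.97, adjusted p = 0.0281) were the markers lower in Tgfbr1/2iSMCKO cells over both segments, and *Lum* itself was at −0.21 (adjusted p = 0.887). Without *Serpinf1* and *Smoc2*, again chosen after the values were seen, the descending sums overlapped at 25.3 to 42.9 CPM in GFPiSMC and 21.5 to 42.7 CPM in Tgfbr1/2iSMCKO libraries. *Pi16* and *Dpep1*, both under 2 CPM in descending libraries, were at log2 fold changes of 2.74 and 1.58 between genotypes there (adjusted p = 0.322 and 0.352 by edgeR). None of the 10 markers was at 0 in all libraries of a group. Pericyte markers (4 genes) summed to 2834 to 5483 CPM in GFPiSMC and 1278 to 3001 CPM in Tgfbr1/2iSMCKO libraries. Of them *Rgs5*, with group means of 1152 to 4177 CPM, made up most of these sums and was lower (−1.52, adjusted p = 0.000701 by edgeR). *Kcnj8* was higher (1.297, adjusted p = 0.00616) and *Abcc9* was at 0.05 (adjusted p = 0.964). *Higd1b*, which was not tested, had 0 counts in all ascending/arch libraries. Its descending libraries held 0 to 36 counts in GFPiSMC and 0 to 6 counts in Tgfbr1/2iSMCKO mice. *Pecam1*, with group means of 66.7 to 83.2 CPM, made up most of the endothelial sums and was at −0.13 (adjusted p = 0.800). Among endothelial markers *Cdh5* was higher in Tgfbr1/2iSMCKO cells (2.97, SE 0.70, adjusted p = 0.0250), with 0 to 14 counts in GFPiSMC and 12 to 79 counts in Tgfbr1/2iSMCKO libraries, which overlapped. The part of these cell types in the collagen results was not tested.

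**Figure D4:**
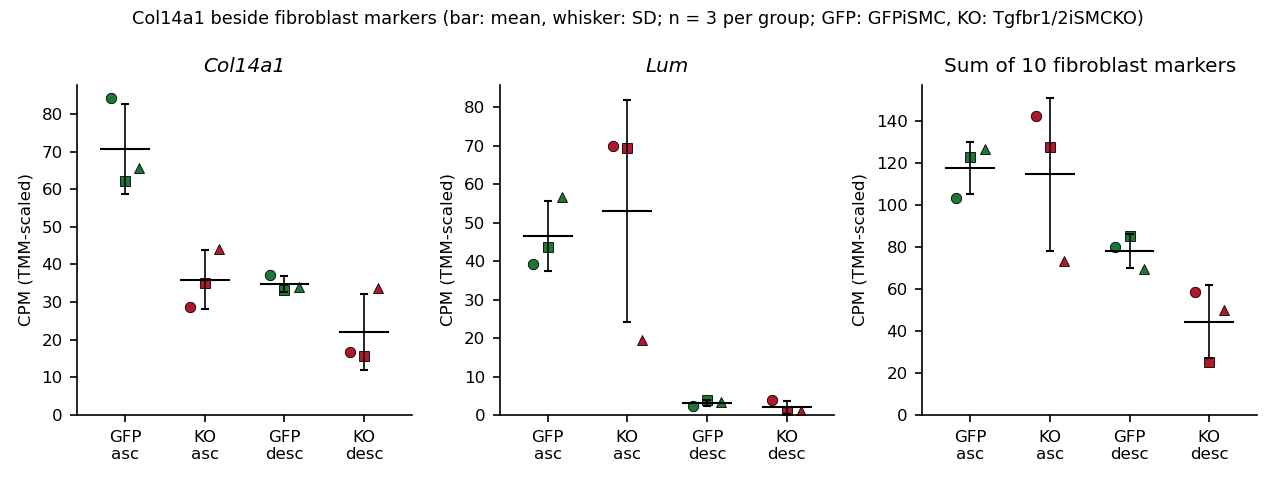
CPM (TMM-scaled) of *Col14a1*, of *Lum*, and of the sum of 10 fibroblast markers in each library, with bars for means and whiskers for SD (n = 3 per group). All 3 are higher in GFPiSMC ascending/arch than in GFPiSMC descending libraries, although the sum without *Lum* overlaps, and only *Col14a1* has separate genotypes in the ascending/arch.

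Other chains of the same families did not pass the test. Of a list of 11 (*Col6a4*, *Col6a5*, *Col6a6*, the collagen IX chains, *Col10a1*, *Col19a1*, *Col20a1*, *Col21a1*, and *Col22a1*), 10 were matched and 9 tested. None passed an adjusted p under 0.05 between genotypes by edgeR over both segments, with 1 at an unadjusted p under 0.05 (*Col19a1*, −0.57, unadjusted p = 0.00598, adjusted p = 0.0878). With 3.23% of all genes lower and 1.8% higher, a count of 0 among 9 is near the background. Their median log2 fold change was 0.09.

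Receptors and binding partners of these collagens were the other list, with 18 genes, all tested. Over both segments 5 were lower and 0 higher in Tgfbr1/2iSMCKO cells, 2 of them past 2-fold, and the median log2 fold change was −0.50, beside the 3.23% of all genes that were lower. This list was drawn up with earlier results of these data known, and the paper had reported *Bgn* and *Itgb1* as decreased. *Bgn* encodes biglycan, a small proteoglycan that binds collagen VI. It fell from 4494 ± 266 to 1352 ± 119 CPM in the ascending/arch and from 3868 ± 509 to 1045 ± 71.8 CPM in the descending aorta (SD, n = 3). On the log2 scale this was −1.81 (SE 0.09, adjusted p = 5.52e-08 by edgeR). *Tnxb*, which encodes tenascin-X, a partner of collagens XII and XIV, fell from 37.8 ± 6.28 to 18.5 ± 5.03 CPM and from 63.0 ± 14.3 to 20.5 ± 7.59 CPM (−1.33, SE 0.23, adjusted p = 0.00323).

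Among receptors, *Itgb1* encodes the β1 integrin subunit, shared by the collagen-binding integrins. It was at 2092 ± 105 against 1536 ± 69.8 CPM in the ascending/arch and at 1985 ± 116 against 1395 ± 132 CPM in the descending aorta (log2 fold change −0.48, SE 0.07, adjusted p = 0.00150 by edgeR). *Cspg4*, which encodes the collagen VI receptor NG2, was at 187 ± 31.6 against 115 ± 41.7 CPM and at 261 ± 73.4 against 107 ± 35.9 CPM (−0.99, SE 0.22, adjusted p = 0.0198). *Fbn1*, which encodes fibrillin-1 of microfibrils, was at 299 ± 37.9 against 210 ± 32.3 CPM and at 286 ± 54.7 against 192 ± 20.9 CPM (−0.54, SE 0.12, adjusted p = 0.0179). Libraries of the genotypes did not overlap for *Bgn*, *Tnxb*, and *Itgb1* among these 5. The calls of *Cspg4* and *Fbn1* were lost without GFPiSMC replicate 1 or 2 or Tgfbr1/2iSMCKO replicate 1 or 2, with adjusted p of 0.0545 to 0.138 and 0.0668 to 0.159. With counts summed per animal, *Bgn* and *Tnxb* passed and *Itgb1* was at an adjusted p of 0.0516, *Cspg4* at 0.126, and *Fbn1* at 0.203. Integrin α subunits, discoidin domain receptors, anthrax toxin receptors, decorin, and perlecan were among the 13 that did not pass.

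**Figure D5:**
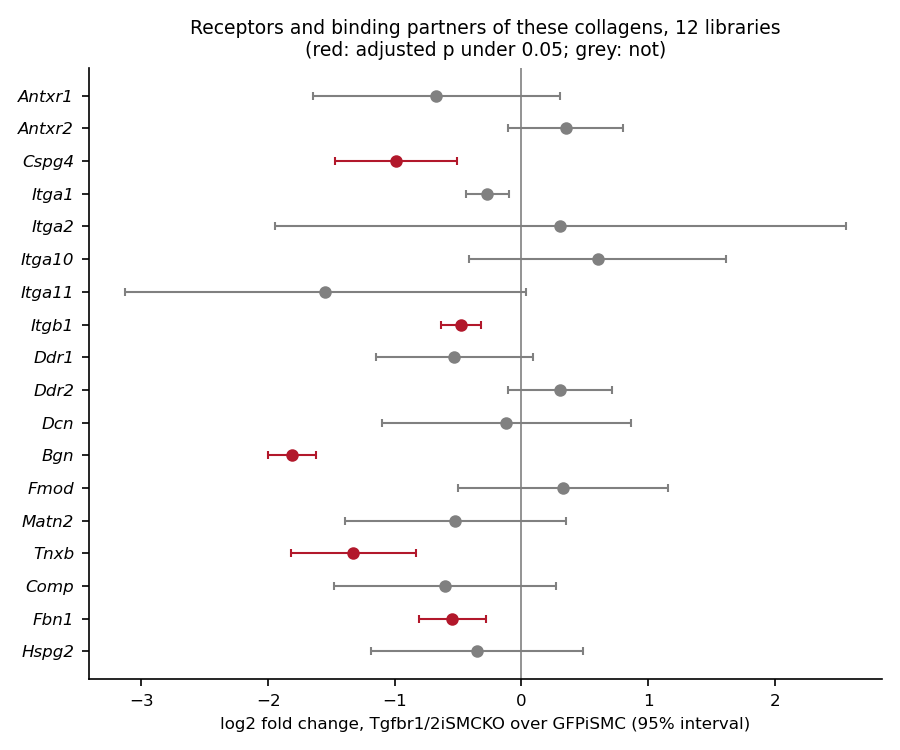
Log2 fold change of Tgfbr1/2iSMCKO over GFPiSMC over both segments for 18 receptors and binding partners, with 95% intervals, in red where the adjusted p was under 0.05. The 5 red genes all lie below 0, with *Bgn* at −1.81 the lowest.

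The genes whose library profiles were most like those of the members were sought among the 11135 genes that averaged 100 counts or more, by the root mean square difference of centred log2 CPM over the 12 libraries. *Morf4l2* was nearest to *Col6a1*, at 0.085 where the median gene was at 0.47, followed by *Tbc1d8b* at 0.11 and *Sec24d* at 0.12. *Itga7* was nearest to *Col6a2*, at 0.14, followed by *Ptgis* and *Itgb3*. *Phf2* was nearest to *Col6a3*, at 0.15, followed by 1190005I06Rik and *Tnfrsf10b*. *Col6a2* ranked 92nd and *Col6a3* 229th for *Col6a1*, so the chains of one protein were close to each other without being each other's closest matches. *Inhba* was nearest to *Col14a1*, at 0.28, followed by *Slc5a3* and *F2r*. *Tm6sf1* was nearest to *Col12a1*, at 0.45, followed by Map2k3os and *Enpp1*. Profiles share genotype, segment, and library effects, and these distances carry no test.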

How the data were processed

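Bulk RNA-seq libraries of GFP-sorted SMCs were made with a low-input kit that does not mark strand. As deposited, the values are whole-number counts per gene, without normalization between libraries. The authors trimmed reads with Trim Galore, aligned them with HISAT2 to GRCm38 (mm10), and obtained counts with StringTie on GENCODE M15 gene models. StringTie derives counts from coverage, so they are not tallies of fragments. Symbols, coordinates, and transcript lengths came from GENCODE M21, which matched 52489 of 52636 genes.

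The 12 libraries were grouped by genotype and segment. Genes with low counts were removed by filterByExpr given these 4 groups, and the rest were tested with quasi-likelihood F tests in edgeR (version 4.0.16, under R 4.3.3) after TMM scaling, with Benjamini-Hochberg adjustment over 22320 genes. The model held segment and genotype for both segments together, and 4 group means for contrasts within a segment or genotype. SE was obtained by dividing the log2 fold change by the root of its F statistic. A gene counted as changed at an adjusted p under 0.05, with 2-fold as an added criterion. Intervals cover 95%. DESeq2 1.42.0 and limma 3.58.1 served as alternatives. The edgeR fit was run on simulated counts drawn independently for each library, which cannot check the use of 2 libraries per mouse. Figures were drawn with matplotlib 3.10.9.

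Libraries of one mouse, taken from the numbers in the titles, correlated by −0.240 to 0.657 in their deviations from the group means over 9202 genes. Nothing beyond those titles states that the 3 replicates are separate mice, and otherwise p-values would measure technical spread. The labels name no sequencing batch. Total counts of 20467027 to 31392396 per library limit precision for genes under about 100 counts, and values cover counting and replicate error together. All members were named whatever their values. From the lists of other chains and of partners, values are given for genes past an adjusted p under 0.05. They are also given for *Col19a1*, *Dcn*, *Itga10*, and *Antxr1*, chosen after their values were seen. The nearest genes are the 3 of smallest distance for members with a mean of at least 100 counts. The members and lists were chosen with earlier results of these data known. Alternatives changed the scaling, filter, tool, count unit, replicate block, unit of replication, and animals.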

Additional observations from a re-analysis of the deposited data

How the results depend on the processing

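Of the log2 fold changes of single genes under all alternatives, 687 kept direction and side of the threshold, 34 lost the call, 11 gained it, and 23 turned direction. Over both segments 5 members were lower by edgeR. With counts summed per animal 2 were, without 1 animal 2 to 5, by DESeq2 6, and with scaling by library size only or no filter beyond 1 count 4, *Col14a1* being lost. In the ascending/arch the count went from 0 to 3 by DESeq2 and lay between 0 and 1 without 1 animal. In the descending aorta it went from 2 to 4 by DESeq2 and to 1 under scaling by library size only or with each segment fitted alone, to 3 when genes averaging under 50 counts were removed, and lay between 1 and 3 without 1 animal. Between segments of GFPiSMC mice it went from 0 to 1 by DESeq2. Fewer samples entered the analyses per animal, per segment, and without 1 animal, and the cause was otherwise not tested. In the comparisons of the genotype effect between segments and of the segments of Tgfbr1/2iSMCKO mice, the count was 0 under all alternatives run.

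Scaling by library size only moved the median log2 fold change of all genes from 0.04 to 0.16, and the split of calls from 721 lower and 402 higher to 505 lower and 699 higher. Under it *Col16a1* over both segments was at 0.00092 and *Col8a2* in the descending aorta at 0.082, both reversed. By DESeq2 1139 genes were lower and 891 higher over both segments, and with counts summed per animal 304 and 147.

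Replicate numbers pair segments of a mouse but not mice of different genotypes, whose same-numbered libraries correlated by −0.529 to 0.205. With the replicate block, the descending count went from 2 to 1, since *Col8a1* was at an adjusted p of 0.0871 by edgeR, and no other call of a member changed, including those between segments with the animal as block.

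Without 1 animal, log2 fold changes that turned direction ranged as follows, none past the threshold in the full data. Between genotypes over both segments, *Col8a2* ranged from −0.012 to 1.24, *Col16a1* from −0.56 to 0.065, and *Tgfbr1* from −0.0021 to 0.20. *Col16a1* ranged from −0.13 to 0.51 in the ascending/arch and from −1.12 to 0.053 in the descending aorta, where *Col8a2* ranged from −0.46 to 0.32. The difference between segments ranged from −0.26 to 0.035 for *Col6a1*, −0.41 to 0.071 for *Col6a2*, −1.32 to 0.026 for *Col8a1*, and −1.10 to 0.050 for *Col16a1*. Between segments, *Col8a2* ranged from −0.25 to 2.87 in GFPiSMC mice. In Tgfbr1/2iSMCKO mice *Col6a1* ranged from −0.023 to 0.17, *Col6a2* from −0.037 to 0.17, *Col8a1* from −0.48 to 0.86, and *Col12a1* from −0.52 to 0.14. *Col8a2* was not fitted with a mean of at least 50 counts required.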

Other observations

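Among the binding partners, *Itga10*, which encodes the collagen-binding integrin α10 subunit, was picked out after its values were seen. It was at 14.96, 10.2, and 11.8 CPM in GFPiSMC ascending/arch libraries and at 1.57, 3.30, and 2.17 CPM in GFPiSMC descending ones. Tgfbr1/2iSMCKO libraries held 3.91, 15.4, and 6.22 CPM in the ascending/arch and 7.29, 9.40, and 7.56 CPM in the descending aorta. By edgeR the log2 fold change between genotypes was 1.78 in the descending aorta (SE 0.47, adjusted p = 0.0933) and −0.54 in the ascending/arch (SE 0.45, adjusted p = 0.740). Their difference was 2.32 (SE 0.64, unadjusted p = 0.00353, adjusted p = 1), which did not pass. *Antxr1*, which encodes an anthrax toxin receptor that binds collagen VI, was also picked out after its values were seen. It was at 7.42 CPM (153 counts) in Tgfbr1/2iSMCKO ascending/arch replicate 2 and between 102 and 193 CPM in the other libraries, including 135 CPM in the descending library of the same mouse.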
